A study of Mus musculus with 46 samples.

Results

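The 7 genes Spp1, Itih3, Fbln7, Smyd1, Ass1, Pttg1 and Sec14l3 are described here out of 15499 genes with allele-resolved counts in the mouse dorsal raphe nucleus. They were picked by name, on their measured ratio of CAST to C57 counts and on how that ratio moved between 3 ages, so these ratios and their changes are given below as a description with no test. The animals were 46 female F1 hybrids that carried 1 C57 and 1 CAST copy of each autosome. They came from reciprocal crosses that the labels call F1i and F1r, with 7 and 7 animals at postnatal day 5 (P5), 7 and 7 at P15 and 9 and 9 adults. Adult labels carry a pair of numbers whose meaning is not stated; each adult library is counted here as 1 animal. No animal was treated, all groups shared the hybrid genotype, and the labels used here give neither the age of the adults in days nor the strain of the mother of F1i. The 7 genes lie on autosomes: Ass1 and Fbln7 on chromosome 2, Spp1 on 5, Smyd1 on 6, Pttg1 and Sec14l3 on 11, and Itih3 on 14.

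In an F1 hybrid both copies of a gene sit in the same nuclei and meet the same transcription factors. A steady difference between the CAST and C57 copies is therefore read as a cis effect, one carried by the DNA sequence in or near the copy itself, while a difference that swaps with the direction of the cross follows the parent that gave the copy. Enhancers are used in particular cell types and ages, so a cis effect can differ between tissues and between stages of development. The dorsal raphe nucleus is the main serotonergic cell group that projects to the forebrain, and its tissue also holds glia, vessels and other neurons. Of the chosen genes, Spp1, Itih3 and Fbln7 encode secreted proteins of the extracellular matrix, Smyd1 and Ass1 encode enzymes, Pttg1 encodes a regulator of chromosome separation and Sec14l3 encodes a lipid-binding protein.

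The reference promoters of the 4 genes whose CAST share crossed 50% between ages (Spp1, Itih3, Fbln7 and Smyd1) are shown so that the DNA around each start can be read beside the allele values. They are RefSeq sequences of build GRCm38.p6, from 250 bases before to 50 after the annotated start, written 5′ to 3′ along the gene, and they are those of the C57BL/6J reference only. The CAST sequence was not used here, so none of the bases below is known to differ between the copies. The windows are chr5:104434861-104435160 on the plus strand for the first annotated start of Spp1, chr14:30923538-30923837 on the minus strand for Itih3, chr2:128863682-128863981 on the plus strand for Fbln7 and chr6:71262232-71262531 on the minus strand for Smyd1. Capitals mark matches, on either strand, to 6 motifs that were searched: the letters TATAAA of the TATA box, the CCAAT box itself, the letters GGGCGG of the GC box, CACGTG for the E-box, TGANTCA for AP-1 sites and TTTGAA for the cell cycle homology region.
Spp1: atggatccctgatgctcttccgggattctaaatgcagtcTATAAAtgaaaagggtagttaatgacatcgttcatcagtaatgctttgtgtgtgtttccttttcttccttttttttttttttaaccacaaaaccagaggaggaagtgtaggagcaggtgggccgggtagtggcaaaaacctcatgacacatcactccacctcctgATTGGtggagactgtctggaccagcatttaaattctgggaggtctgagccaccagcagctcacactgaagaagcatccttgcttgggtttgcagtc
Itih3: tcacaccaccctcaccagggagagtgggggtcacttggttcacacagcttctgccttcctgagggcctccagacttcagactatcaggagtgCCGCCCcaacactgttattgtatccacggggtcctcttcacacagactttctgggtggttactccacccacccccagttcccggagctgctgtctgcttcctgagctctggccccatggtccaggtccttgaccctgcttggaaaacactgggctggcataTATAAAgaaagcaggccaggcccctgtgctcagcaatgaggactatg
Fbln7: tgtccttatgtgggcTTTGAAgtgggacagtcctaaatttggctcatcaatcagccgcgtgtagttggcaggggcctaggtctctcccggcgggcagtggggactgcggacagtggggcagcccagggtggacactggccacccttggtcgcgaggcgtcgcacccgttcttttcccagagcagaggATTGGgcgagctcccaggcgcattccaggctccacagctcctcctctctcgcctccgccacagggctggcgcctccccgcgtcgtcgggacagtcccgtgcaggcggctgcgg
Smyd1: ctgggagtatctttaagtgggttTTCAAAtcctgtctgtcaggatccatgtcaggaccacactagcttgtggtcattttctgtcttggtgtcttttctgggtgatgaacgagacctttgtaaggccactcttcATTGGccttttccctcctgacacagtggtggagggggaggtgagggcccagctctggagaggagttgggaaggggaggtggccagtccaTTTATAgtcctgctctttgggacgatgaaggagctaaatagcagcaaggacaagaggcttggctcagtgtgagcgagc
The Spp1 window held matches to the letters of the TATA box and the CCAAT box, and that of Itih3 to those of the TATA box and the GC box. In the Fbln7 window the matches were to the CCAAT box and the cell cycle homology region. In that of Smyd1 they were to the TATA box, the CCAAT box and the cell cycle homology region. Matches were taken anywhere in the window, whatever their distance from the start, so none is shown to be a working promoter element. Over all 32851 promoters of the same length, 13.62% held TATAAA, 37.41% CCAAT, 35.66% GGGCGG, 7.15% CACGTG, 7.81% TGANTCA and 17.89% TTTGAA. The Fbln7 window had 66.0% G and C bases and 22 CpG sites, against 45.3% and 3 in Spp1, 57% and 3 in Itih3 and 52.0% and 3 in Smyd1, beside medians of 52.7% and 7 over all promoters. A match describes the letters and says nothing about binding.

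The summed counts of both alleles ranged from 3692778 to 13085952 per animal, and CAST took 50.14 to 52.24% of them. Levels below are CPM, an allele's count scaled to a fixed total of the summed counts of both alleles of the same animal, so the CAST and C57 levels of a gene share 1 scale. A share from 1 animal has a 95% Wilson interval, whose widest half-width was 5.14 percentage points for Itih3 and 13.6 for Fbln7, and it covers counting error only. Markers of serotonergic neurons, 7 of 8 listed genes, summed to 417 to 526.02 CPM in F1i and 448 to 635 CPM in F1r at P5, and to at least 1038 CPM in every later animal, so the labelled tissue carried its defining markers at each age. In 3 F1i libraries, replicates 1 and 2 at P15 and replicate 1_1 of the adults, the log2 CPM of 9374 genes correlated with the mean of the rest of their group at 0.9737, 0.9703 and 0.965, under the 0.98 that every other library exceeded. Leaving them out kept the sign of every change of the 7 CAST to C57 ratios, and the shift was largest for Sec14l3 from P15 to adult, with a log2 change of 1.80 in place of 1.52. In bulk tissue, fewer cells of a type and less RNA per cell cannot be told apart.

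**Figure D1:**
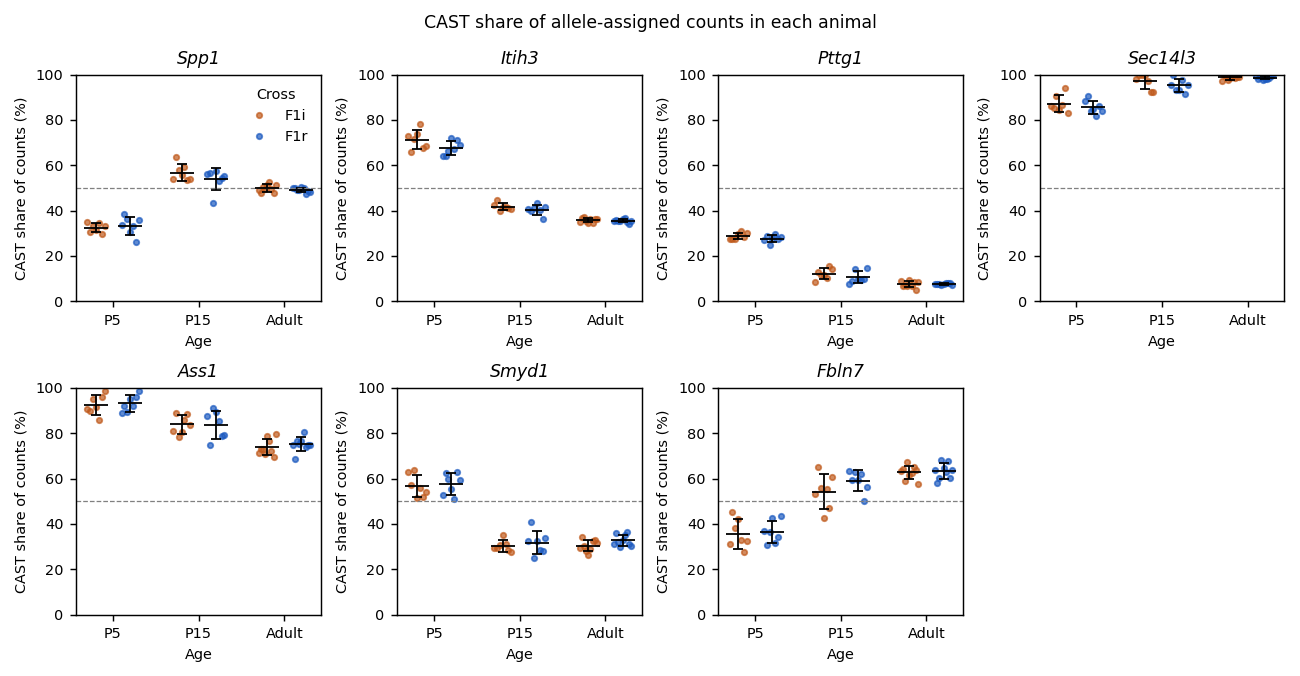
CAST share of the counts of each gene (%, vertical axis) at P5, P15 and in adults; points are animals, F1i left of F1r, and bars give the mean ± SD of each cross. Spp1, Itih3, Smyd1 and Fbln7 cross the dashed line at 50%, Pttg1 and Sec14l3 move away from it, and Ass1 moves towards it.

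Spp1 encodes osteopontin, a phosphoprotein of bone and soft tissue that binds integrins and CD44. At P5 the lowest, median and highest CAST share was 29.7, 33.0 and 34.8% in F1i and 26.1, 33.5 and 38.3% in F1r. The P15 shares were 53.5, 55.6 and 63.8% in F1i and 43.3, 55.0 and 57.5% in F1r. Adult values were 47.6, 49.6 and 52.6% in F1i and 47.5, 49.2 and 50.2% in F1r. C57 was the higher allele in 14 of 14 animals at P5, CAST in 13 of 14 at P15, and neither allele led in adults, where CAST was higher in 6 of 18 and C57 in 12 of 18. The Spp1 CAST allele had a lowest, median and highest level of 22.2, 28.8 and 49.3 CPM at P5, 28.6, 53.9 and 64.1 CPM at P15 and, in adults, 90.1, 163 and 202 CPM. For the Spp1 C57 allele these levels were 45.1, 61.7 and 88.8 CPM, 16.3, 41.3 and 55.3 CPM and 81.3, 167 and 209 CPM at the same ages. From P5 to P15 the alleles moved in opposite directions: the mean P15 level was 1.72 times the P5 level for CAST and 0.684 times for C57, although animals of both ages overlapped in each. Adults then stood at 3.05 times the P15 level for CAST and 3.85 times for C57, with every adult above every P15 animal. The log2 ratio of CAST to C57 was -1.03 ± 0.04 (P5), 0.29 ± 0.04 (P15) and -0.03 ± 0.02 (adult) (estimate ± SE), and both crosses had the same sign at each age. The adult ratio lies close to 0, so its sign describes no allelic lead. A part of the Spp1 transcript sequence, 11.591% of its 50-base words, is shared with Gm42793, an annotated gene that overlaps it on the same strand and is not among the genes of the tables.

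Itih3 encodes a heavy chain of the inter-alpha-trypsin inhibitor family, secreted proteins that are attached to hyaluronan and stabilise it. In P5 animals the CAST share had a lowest, median and highest value of 65.9, 71.7 and 78.1% in F1i and 64.2, 67.2 and 71.9% in F1r. By P15 the same 3 values were 39.6, 41.5 and 44.5% in F1i and 36.2, 40.6 and 43.4% in F1r. In adults they were 34.5, 36.1 and 37.3% in F1i and 34.3, 35.4 and 36.7% in F1r. All 14 animals had CAST as the higher allele at P5, and C57 led in all 14 at P15 and in all 18 adults, with no overlap between P5 and either later age. The Itih3 CAST allele had a lowest, median and highest level of 38.04, 46.2 and 52 CPM at P5, 107, 122 and 134 CPM at P15 and, in adults, 153, 168 and 199 CPM. For the Itih3 C57 allele these levels were 14.6, 19.99 and 25.1 CPM, 149, 176 and 201 CPM and 273, 313 and 351 CPM at the same ages. Both alleles were higher at each later age in every animal, and the C57 allele moved most. Its mean at P15 was 8.51 times that at P5, beside 2.61 times for CAST, and in adults it was 1.77 times the P15 level, beside 1.41 times for CAST. From P5 to adult this amounted to 3.69 times for CAST and 15.1 times for C57. The log2 ratio was 1.18 ± 0.05 (P5), -0.53 ± 0.02 (P15) and -0.85 ± 0.01 (adult).

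Fbln7 encodes fibulin 7, a secreted glycoprotein of the fibulin family that promotes cell adhesion. At P5 the lowest, median and highest CAST share was 27.4, 32.7 and 45.5% in F1i and 30.9, 36.2 and 43.4% in F1r. At P15 they were 42.5, 55.4 and 65.3% in F1i and 50.0, 59.5 and 63.4% in F1r. Adult values were 57.7, 63.5 and 67.5% in F1i and 57.9, 63.7 and 68.2% in F1r. C57 was higher in 14 of 14 animals at P5 and CAST in 18 of 18 adults, while P15 lay between, with CAST higher in 11, C57 in 2 and equal counts in 1. The Fbln7 CAST allele had a lowest, median and highest level of 2.79, 3.54 and 5.12 CPM at P5, 5.79, 9.68 and 12.8 CPM at P15 and, in adults, 10.9, 15.3 and 19.7 CPM. For the Fbln7 C57 allele these levels were 4.601, 6.51 and 8.82 CPM, 5.703, 7.06 and 9.44 CPM and 6.21, 8.41 and 12.2 CPM at the same ages. Here it was the CAST allele that moved: its mean was 2.59 times the P5 level at P15, with no overlap between animals, and 4.21 times in adults. The C57 means were 1.09 and 1.39 times the P5 level, and C57 levels overlapped between all ages. The log2 ratio was -0.83 ± 0.10 (P5), 0.41 ± 0.09 (P15) and 0.77 ± 0.05 (adult). These values rest on 322 CAST and 573 C57 counts over all P5 animals, fewer than for Spp1 or Itih3.

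Smyd1 encodes a SET and MYND domain protein, a lysine methyltransferase known from heart and skeletal muscle, where it is needed for the assembly of the contractile apparatus. In P5 animals the CAST share had a lowest, median and highest value of 51.4, 56.0 and 63.9% in F1i and 50.8, 59.1 and 62.7% in F1r. The P15 shares were 27.6, 29.6 and 35.2% in F1i and 25.0, 32.3 and 40.7% in F1r. In adults they were 26.5, 30.1 and 34.1% in F1i and 29.8, 31.9 and 36.2% in F1r. CAST was the higher allele in 14 of 14 animals at P5, C57 in 14 of 14 at P15 and in 18 of 18 adults, and shares of P5 animals did not overlap those of later ages. The Smyd1 CAST allele had a lowest, median and highest level of 5.2, 5.76 and 7.67 CPM at P5, 7.74, 9.18 and 13 CPM at P15 and, in adults, 5.08, 6.65 and 9.38 CPM. For the Smyd1 C57 allele these levels were 3.62, 4.64 and 5.72 CPM, 18.7, 20.9 and 25.7 CPM and 12.1, 14.5 and 17.7 CPM at the same ages. The move between P5 and P15 was larger on the C57 copy, whose mean was 4.55 times its P5 level, beside 1.53 times for CAST. From P15 to adult both copies were lower by nearly the same proportion, at 0.693 times the P15 level for CAST and 0.673 times for C57, so the share hardly moved. The log2 ratio was 0.41 ± 0.09 (P5), -1.17 ± 0.06 (P15) and -1.12 ± 0.04 (adult), and its change from P15 to adult was 0.05 ± 0.08. The annotation places 4 other genes over the Smyd1 locus on the opposite strand, with 0 shared exon bases, and of these Krcc1 is in the tables; which strand was counted is not given in the sources used here.

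**Figure D2:**
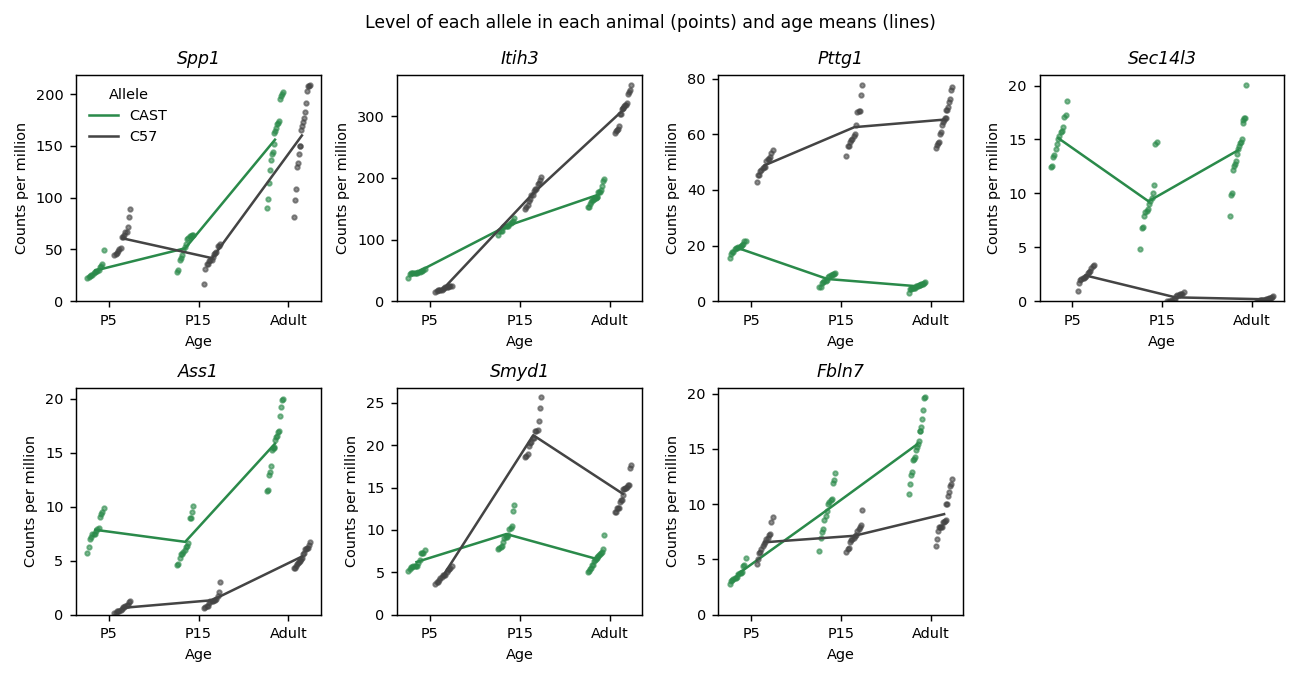
Level of the CAST allele and of the C57 allele of each gene (CPM of both alleles, linear vertical axes that start at 0) at P5, P15 and in adults; points are animals sorted by level and lines join the age means. The lines of the alleles cross for Spp1, Itih3, Smyd1 and Fbln7, while for Pttg1 and Sec14l3 the lower allele comes down and for Ass1 both alleles end above their P15 level.

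Ass1 encodes argininosuccinate synthase, an enzyme of the urea cycle that also regenerates arginine from citrulline for nitric oxide synthesis. At P5 the lowest, median and highest CAST share was 86.0, 91.4 and 98.6% in F1i and 88.9, 92.1 and 98.6% in F1r. By P15 the same 3 values were 78.4, 83.6 and 89.1% in F1i and 75.0, 85.2 and 91.2% in F1r. Adult values were 69.5, 73.0 and 79.6% in F1i and 68.5, 75.0 and 80.4% in F1r. CAST was the higher allele in all 46 animals, and its share came down towards 50% with age, without overlap between P5 and adults. The Ass1 CAST allele had a lowest, median and highest level of 5.74, 7.604 and 9.92 CPM at P5, 4.59, 6.15 and 10.1 CPM at P15 and, in adults, 11.5, 15.9 and 20.03 CPM. For the Ass1 C57 allele these levels were 0.097, 0.624 and 1.21 CPM, 0.58, 1.26 and 2.98 CPM and 4.27, 5.21 and 6.76 CPM at the same ages. Relative to P5, the P15 mean was 0.858 times for CAST and 2.15 times for C57. Adult means were 2.02 times the P5 level for CAST and 8.73 times for C57, so the low allele moved most. The log2 ratio was 3.70 ± 0.16 (P5), 2.32 ± 0.13 (P15) and 1.57 ± 0.05 (adult), and the first rests on 692 CAST and 52 C57 counts. Reads of Ass1 are uncertain: 38.618% of the 50-base words of its transcripts also occur in Gm5424, an annotated pseudogene on chromosome 10 that is not among the genes of the tables, and how reads matching several places were counted is not given in the sources used here.

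Pttg1 encodes securin, which holds separase inactive until the sister chromatids separate at anaphase. In P5 animals the CAST share had a lowest, median and highest value of 27.3, 28.5 and 30.9% in F1i and 24.6, 27.4 and 29.5% in F1r. At P15 they were 8.3, 11.8 and 15.6% in F1i and 7.7, 9.9 and 14.7% in F1r. In adults they were 4.9, 7.1 and 9.2% in F1i and 7.0, 7.7 and 8.2% in F1r. C57 led in all 46 animals, and the lead was wider at P15 and in adults than at P5, with no overlap in share between P5 and the later ages. The Pttg1 CAST allele had a lowest, median and highest level of 15.4, 19.4 and 21.7 CPM at P5, 5.001, 8.08 and 10.3 CPM at P15 and, in adults, 2.84, 5.58 and 6.92 CPM. For the Pttg1 C57 allele these levels were 42.7, 48.3 and 54.4 CPM, 52.1, 59.8 and 77.7 CPM and 54.9, 65.4 and 77.1 CPM at the same ages. The CAST allele stood at 0.417 times its P5 level at P15 and at 0.281 times in adults, and every later animal was below every P5 animal. The C57 allele stood at 1.28 and 1.34 times its P5 level, so the alleles moved in opposite directions and the sum hardly moved. The log2 ratio was -1.35 ± 0.04 (P5), -2.93 ± 0.06 (P15) and -3.60 ± 0.04 (adult). Markers of dividing cells, of which 2 of 8 listed were in the tables, summed to 3.2 to 5.12 CPM in F1i and 2.15 to 5.43 CPM in F1r at P5 and to at most 0.84 CPM in adults; their part in the change of share was not tested.

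Sec14l3 encodes a member of the SEC14-like family, proteins with a CRAL-TRIO domain that bind small lipids. At P5 the lowest, median and highest CAST share was 83.1, 86.2 and 94.0% in F1i and 81.5, 84.8 and 90.4% in F1r. The P15 shares were 92.3, 98.2 and 100% in F1i and 91.3, 95.3 and 100% in F1r. Adult values were 97.0, 98.9 and 100% in F1i and 97.7, 98.5 and 100% in F1r. CAST led in all 46 animals and took nearly all counts from P15 on. The Sec14l3 CAST allele had a lowest, median and highest level of 12.4, 15.1 and 18.5 CPM at P5, 4.84, 8.77 and 14.8 CPM at P15 and, in adults, 7.93, 14.3 and 20.02 CPM. For the Sec14l3 C57 allele these levels were 0.98, 2.27 and 3.39 CPM, 0, 0.351 and 0.813 CPM and 0, 0.18 and 0.474 CPM at the same ages. Few counts of the C57 allele were left at later ages: its mean at P15 was 0.151 times that at P5, and in adults 0.076 times, with no overlap between P5 and later animals. CAST stood at 0.614 times its P5 level at P15 and at 0.928 times in adults, with overlap. The C57 counts were 5 to 28 per animal at P5, 0 to 5 at P15 and 0 to 5 in adults, and summed to 215, 28 and 34. With no C57 count in 4 P15 animals and 3 adults, 3 counts of the total allow C57 shares of up to 9.09% at P15 and 3.0% in adults in the shallowest of them. The log2 ratio was 2.62 ± 0.09 (P5), 4.59 ± 0.19 (P15) and 6.16 ± 0.12 (adult), where the size of the ratio is set by few C57 counts.

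**Figure D3:**
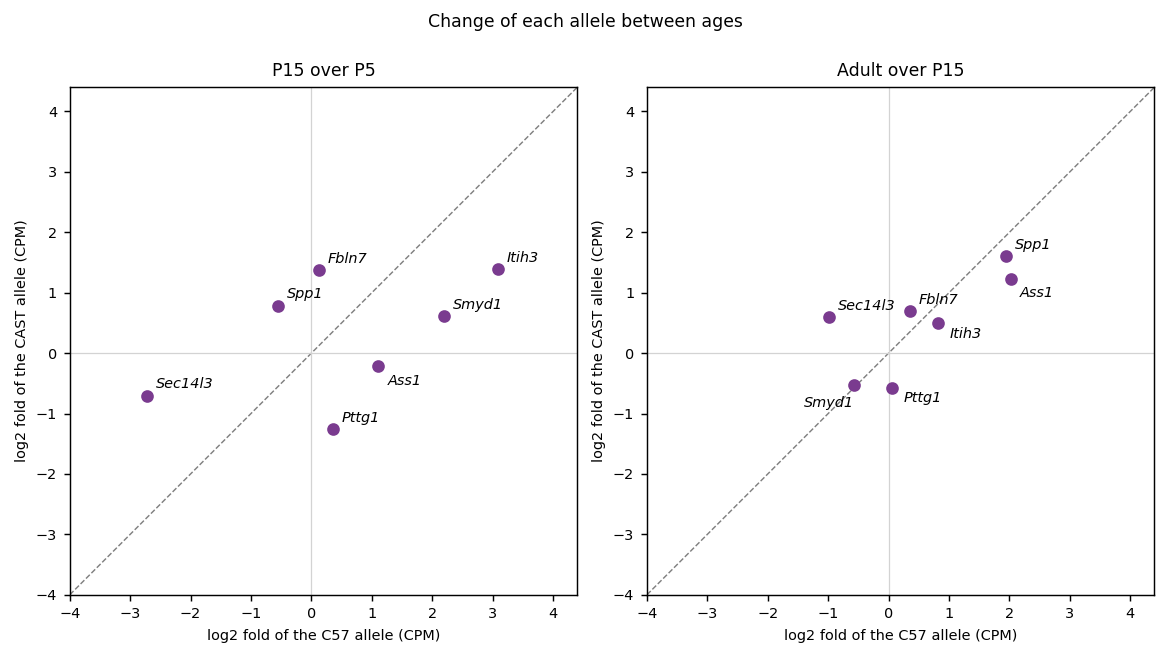
Change of the mean level of each allele between ages, as the log2 fold of C57 (horizontal axis) and of CAST (vertical axis) for P15 over P5 (left) and adult over P15 (right); on the dashed line both alleles change alike. Spp1, Fbln7 and Sec14l3 lie above the line on the left and Itih3, Smyd1, Ass1 and Pttg1 below it, and all 7 points lie closer to the line on the right.

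By the estimates, the first interval held the larger part of the change in each gene. For Sec14l3 the ranges of estimate ± SE of the intervals overlapped. With 28 C57 counts at P15 and 34 in adults, its order is not settled. Between P5 and P15 the log2 ratio moved by 1.32 ± 0.06 for Spp1, -1.70 ± 0.05 for Itih3, 1.24 ± 0.13 for Fbln7, -1.58 ± 0.10 for Smyd1, -1.38 ± 0.26 for Ass1, -1.59 ± 0.08 for Pttg1 and 1.996 ± 0.28 for Sec14l3. From P15 to adult the sizes were smaller, between 0.05 for Smyd1 and 1.52 ± 0.43 for Sec14l3, and Spp1 moved back by -0.32 ± 0.05. Over 12430 genes the change of this ratio was called (adjusted p at or below 0.05, edgeR quasi-likelihood test) for 18.7% from P5 to P15, 15.5% from P15 to adult and 29.6% from P5 to adult, and since the 7 genes were chosen on this measure nothing is read from their place in it. Of 11649 genes tested at every age, 196 had called ratios on opposite sides at P15 and P5, 140 at adult and P15, and 380 at adult and P5. With both ratios beyond 0.5 in log2 size these numbers were 2, 3 and 5. The first pair of ages includes Itih3, and the last pair includes Itih3 and Fbln7.

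The summed level of both alleles was not used to choose the genes, and all 7 passed its filter on low counts. From P5 to P15, 3 of 7 rose (Itih3, Smyd1 and Fbln7) and 1 fell (Sec14l3), beside 42.5% and 40.9% of all 13637 genes tested. From P15 to adult 5 rose (Spp1, Itih3, Sec14l3, Ass1 and Fbln7) and 1 fell (Smyd1), beside 37.0% and 37.7%, and from P5 to adult 5 rose and 1 fell (Sec14l3), beside 40.6% and 41.5%. With this many genes changing with age, the counts of the 7 do not stand out from the background. Itih3 had the largest change, with 56.6, 66.9 and 72.9 CPM (lowest, median, highest) at P5, 256, 298 and 326 CPM at P15 and 431, 484 and 549 CPM in adults. Its log2 change from P5 to adult was 2.86 ± 0.04 (adjusted p = 1.13e-47, edgeR).

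Spp1 had a log2 change of 0.00 ± 0.12 from P5 to P15 (adjusted p = 0.992, edgeR quasi-likelihood test, as for the values that follow), the interval in which its alleles swapped order, and of 1.82 ± 0.11 from P15 to adult (adjusted p = 1.55e-19). For Pttg1 the changes were 0.01 ± 0.05 and 0.06 ± 0.05 (adjusted p = 0.827 and 0.232), so no change of its sum passed the test while its median CAST share was lower at each later age in both crosses. Ass1 did not pass from P5 to P15, at -0.12 ± 0.11 (adjusted p = 0.305), but did without the 3 libraries that stood apart, at -0.22 ± 0.10 (adjusted p = 0.0498, edgeR). From P15 to adult it rose by 1.46 ± 0.09 (adjusted p = 2.31e-19). Smyd1 rose by 1.46 ± 0.06 to P15 (adjusted p = 1.49e-26) and changed by -0.50 ± 0.05 from there to adult (adjusted p = 7.98e-12). Fbln7 rose in both intervals, by 0.66 ± 0.08 (adjusted p = 7.62e-10) and 0.61 ± 0.07 (adjusted p = 8.09e-11). Sec14l3 changed by -0.92 ± 0.11 (adjusted p = 4.97e-11) and then by 0.65 ± 0.10 (adjusted p = 1.07e-07).

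Cell type markers moved over the same ages, and their part in these levels and shares was not tested. Markers of oligodendrocytes, 7 of 8 listed, had a median sum of 2051 CPM in F1i and 2688 CPM in F1r at P5, 23367 and 23976 CPM at P15, and 8524 and 9956 CPM in adults. That order, highest at P15 and lowest at P5, is the order of the summed Smyd1 level and also that of the microglia medians below. Astrocyte markers, 9 of 10, summed to 3663 to 4249 CPM in F1i and 3750.5 to 4069 CPM in F1r at P5 and to at least 7906 CPM in every later animal. Microglia markers, 8 of 11, had median sums of 272 CPM in F1i and 298 CPM in F1r at P5. These were 443 and 473 CPM at P15, and 313 and 305 CPM in adults. Cranial motor neuron markers, 5 of 7, summed to 107 to 129 CPM in F1i and 130.2 to 173 CPM in F1r at P5, 208 to 363 and 215 to 331 CPM at P15, and 188 to 406 and 287 to 428 CPM in adults. Ependymal and choroid plexus markers, 10 of 10, had medians of 341 to 508 CPM. Markers of fibroblasts, 9 of 9, and of endothelial and mural cells, 8 of 8, were lower in adults, at 142 to 180.5 and 166 to 185 CPM in F1i, than at P5, at 402 to 454 and 363 to 411 CPM. Skeletal muscle markers, 2 of 9 in the tables, summed to at most 6.24 CPM in any animal, and no listed marker in the tables was at 0 throughout a group.

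The difference between the crosses was not used to choose the genes. The parental effect, F1i minus F1r of the log2 ratio divided by 2, was called in 0 of 7 genes at each age (edgeR quasi-likelihood test, adjusted p over all genes). Over all genes it was called for 2.71% at P5, 0.742% at P15 and 2.71% in adults. The largest estimate at P5 was that of Itih3, 0.11 ± 0.05 (adjusted p = 0.553, edgeR), the only 1 of the 7 with an unadjusted p under 0.05 at any age. At P5 the mean Itih3 share was 71.2 ± 4.2% in F1i and 67.7 ± 3.1% in F1r (SD, n = 7 each), a difference smaller than the SD of F1i. The change of the parental effect with age was called in 0 of 7 genes in each pair of ages, beside 0.153% from P5 to P15, 0.129% from P15 to adult and 0.241% from P5 to adult, and 0 of the 7 had an unadjusted p under 0.05. Limma on the log2 ratio and DESeq2 also called 0 of 7 at each age. Each of the 7 ratios had the same sign in F1i and F1r at every age, adult Spp1 with its ratio near 0 included.

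The summed level did not pass a test between crosses in any of the 7 genes at any age, beside 1.17% of all genes called at P5, 0.0467% at P15 and 0.111% in adults. Unadjusted p values under 0.05 came from Spp1 and Sec14l3 at P5 and Sec14l3 at P15. Spp1 had 67.3, 90.2 and 96 CPM (lowest, median, highest) in F1i and 76.02, 97.7 and 138 CPM in F1r at P5, a log2 difference of -0.26 ± 0.09 (adjusted p = 0.169, edgeR). Sec14l3 differed by -0.20 ± 0.08 at P5 (adjusted p = 0.284) and -0.39 ± 0.17 at P15 (adjusted p = 1.0) on the log2 scale, with overlapping crosses. The same-numbered adults of both crosses deviated together, and with the second label number as a block 77 genes in place of 15 were called in adults, again 0 of the 7. The change of the cross effect with age was called in 0 of 7 genes, beside 0.0147% from P5 to P15, 0.0367% from P15 to adult and 0.0% from P5 to adult. Its only unadjusted p under 0.05 was that of Sec14l3 from P15 to adult, 0.48 ± 0.20 (adjusted p = 0.693, edgeR).

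Scatter of the shares between animals of a group was compared with counting error through the Pearson statistic of a binomial model per degree of freedom, which is near 1 where counting error alone is present. Its median over all genes was 0.95 to 1.08 in the 6 groups, and 1 gene in 10 lay above values of 1.94 to 2.07. Spp1 stood above these in F1i at P15 with 2.16 and in adults with 2.53. In F1r it did so at P5 with 4.27 and at P15 with 3.47, where 1 animal had a share of 43.3% and the others 53.15 to 57.48%. Itih3 reached 3.59 at P5 in F1i and 2.95 at P15 in F1r. Smyd1 stayed between 0.43 and 1.67, and Pttg1 between 0.15 in adult F1r and 2.84 at P15 in F1r. The shares of P5 and adult animals did not overlap in any of the 7 genes. The genes were chosen on the change of this ratio, so nothing is read from that. How often it holds over all genes was not counted.

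**Figure D4:**
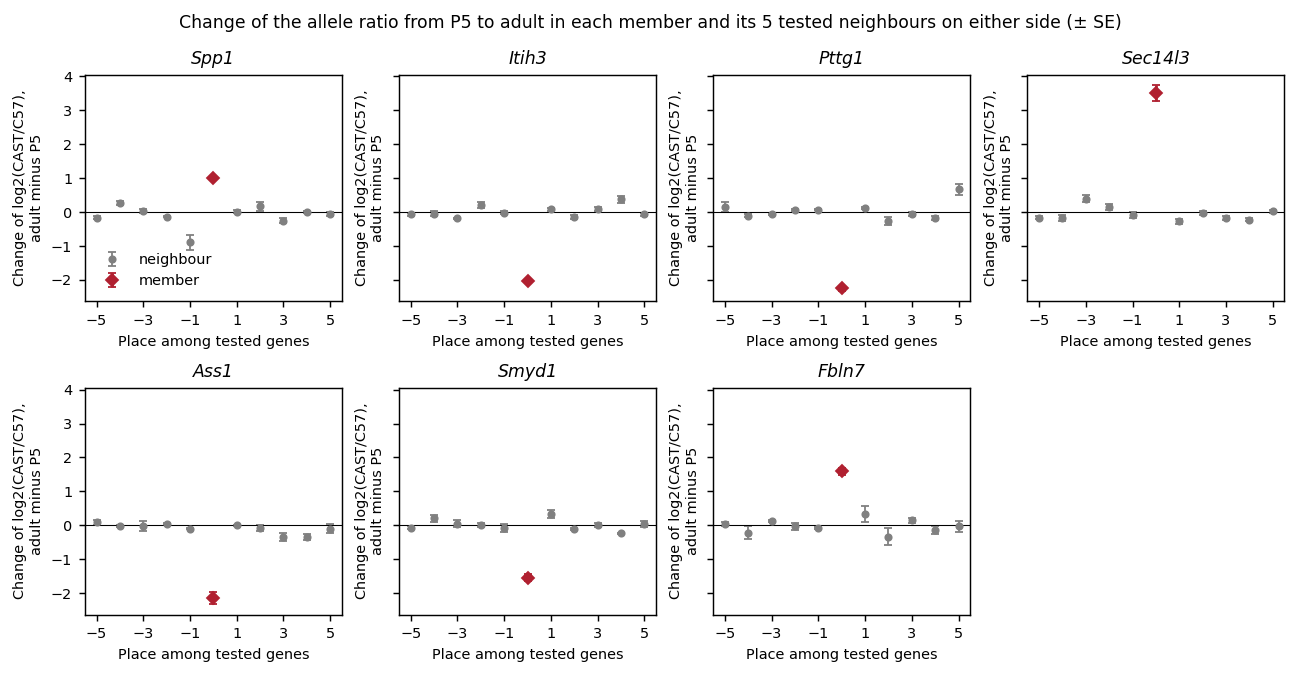
Change of the log2 ratio of CAST to C57 from P5 to adult (vertical axis, estimate ± SE) in each of the 7 genes (red diamond) and in the 5 nearest tested genes on either side (grey points), by place along the chromosome. The 7 genes lie between -2.25 and 3.51, and the grey points lie between -0.89 (Dmp1, beside Spp1, with few counts at P5) and 0.67 (Ublcp1, near Pttg1).

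Whether the genes beside the 7 moved too was asked of neighbours that were not chosen by their ratios. Among the 5 nearest tested genes on either side of each of the 7, 70 in all, the change of the log2 ratio was called for 14 from P5 to P15, 8 from P15 to adult and 24 from P5 to adult. These are 20%, 11.4% and 34.3% of the neighbours, near the shares over all genes given above, and the median sizes of change were 0.098, 0.068 and 0.100 beside 0.108, 0.085 and 0.110 over all genes. From P5 to adult the called neighbours were Klhl8, Hsd17b11, Sparcl1, Dmp1 and Lrrc8c near Spp1, Tkt, Spcs1 and Gnl3 near Itih3, Anapc1 near Fbln7, and Rmnd5a and Chmp3 near Smyd1. Near Ass1 they were Ncs1, Uck1 and Golga2, near Pttg1 they were Ccng1, Gabrb2, Slu7, Adra1b and Ublcp1, and near Sec14l3 they were Dusp18, Tcn2, Mtfp1, Rnf215 and Ccdc157. Glt8d1 near Itih3, Pwwp2a near Pttg1, Sf3a1 near Sec14l3 and Gpr107 near Ass1 were called for a shorter interval and not from P5 to adult.

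Directly beside Spp1, Dmp1, another matrix phosphoprotein, moved by -0.89 ± 0.22 from P5 to adult (adjusted p = 0.000786, edgeR), in the opposite direction to Spp1 at 1.001 ± 0.05, and Pkd2 on the other side by 0.02 ± 0.05 (adjusted p = 0.861). The genes next to Itih3 were Sfmbt1 at -0.02 ± 0.05 and Nek4 at 0.08 ± 0.05 (adjusted p = 0.828 and 0.304), beside -2.03 ± 0.05 for Itih3. Next to Fbln7 lay Tmem87b at -0.08 ± 0.04 and Zc3h8 at 0.35 ± 0.23 (adjusted p = 0.125 and 0.282). Beside Smyd1 were Thnsl2 at -0.08 ± 0.12 and Krcc1 at 0.34 ± 0.13 (adjusted p = 0.666 and 0.0561), the second in the opposite direction to Smyd1 at -1.54 ± 0.10. The flanks of Ass1, Ncs1 at -0.10 ± 0.03 and Prrc2b at 0.00 ± 0.02, of Pttg1, Gabrb2 at 0.07 ± 0.02 and Slu7 at 0.12 ± 0.04, and of Sec14l3, Gal3st1 at -0.08 ± 0.10 and Mtfp1 at -0.28 ± 0.06, were all small in size. None of the 14 adjacent genes moved by as much as the gene it flanks. The flanked genes were chosen on the change of this ratio and their neighbours were not, so nothing is read from that.

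Genes related by function to the 7 were described from lists of named genes. The genes whose ratio change was called are named beside each count, after their values were seen. Of 15 osteopontin receptors and relatives, 11 were tested, and from P5 to adult 3 rose and 7 fell in summed level, beside 40.6% and 41.5% of all genes, with a median size of 0.594 in log2 beside 0.458 over all genes. Dmp1, a matrix phosphoprotein, had 2.68 ± 0.751 CPM at P5, 6.72 ± 0.989 CPM at P15 and 50.8 ± 6.79 CPM in adults (mean ± SD, n = 14, 14 and 18). Thbs1, a matrix glycoprotein, had 9.95 ± 1.54 CPM at P5, 3.57 ± 1.11 CPM at P15 and 2.11 ± 0.41 CPM in adults, and Itga5, an integrin chain, had 9.16 ± 0.892 CPM at P5, 2.2 ± 0.813 CPM at P15 and 1.17 ± 0.539 CPM in adults. Dmp1 thus rose and Thbs1 and Itga5 fell at each step (edgeR, adjusted p at most 3.34e-05). The change of the allele ratio was called for 3 of 11 from P5 to P15 (Itgav, Itgb1 and Itga9) and for 2 of 11 from P5 to adult (Dmp1 and Vtn), beside 18.7% and 29.6% of all genes, with median sizes of 0.212 and 0.151. The P5 ratio of Dmp1 rests on few counts.

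Of 20 genes of the inter-alpha-inhibitor and hyaluronan list, 14 were tested for level, and 6 rose and 6 fell from P5 to adult, beside 40.6% and 41.5% of all genes. Hapln2, a link protein, had 3.02 ± 0.737 CPM at P5, 13.5 ± 3.16 CPM at P15 and 40.6 ± 4.51 CPM in adults. Ncan, the proteoglycan neurocan, had 983 ± 43.5 CPM at P5, 216 ± 65.3 CPM at P15 and 167 ± 18.1 CPM in adults, and Cemip, which takes part in hyaluronan breakdown, had 30.9 ± 5.39 CPM at P5, 6.52 ± 1.7 CPM at P15 and 3.91 ± 1.08 CPM in adults. Hapln2 rose and Ncan and Cemip fell. Allele ratios of 7 of 11 tested genes were called as changed from P5 to adult, 6 higher and 1 lower, beside 29.6% of all genes (Tnfaip6, Bcan, Hapln2, Acan, Hapln4, Ncan and Vcan), with a median size of 0.312 beside 0.110 over all genes and 2.03 for Itih3. Of these Hapln2 moved by 0.88 ± 0.18 (adjusted p = 6.1e-05) and Ncan by 0.31 ± 0.03 (adjusted p = 2.67e-15, edgeR), both towards CAST.

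Among 20 fibulins and elastic fibre genes 16 were tested for level, and from P5 to adult 4 rose and 10 fell, beside 40.6% and 41.5% of all genes. The microfibril gene Mfap2 had 11 ± 1.58 CPM at P5, 4.02 ± 1.15 CPM at P15 and 1.74 ± 0.57 CPM in adults. Mfap4 had 1.02 ± 0.367 CPM at P5, 5.53 ± 1.5 CPM at P15 and 1.38 ± 0.293 CPM in adults, and Emilin1, an elastin-associated glycoprotein, had 3.55 ± 0.645 CPM at P5, 1.4 ± 0.448 CPM at P15 and 0.954 ± 0.271 CPM in adults. Mfap4 was thus highest at P15. Ratios of 2 of 10 tested genes, Fbln5 and Fbln1, were called as changed from P5 to adult, both towards C57, beside 29.6% of all genes.

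Of 12 SMYD family genes and partners 9 were tested, and 4 rose and 2 fell from P5 to adult, beside 40.6% and 41.5% of all genes. Smyd2 had 88 ± 4.49 CPM at P5, 144 ± 15.4 CPM at P15 and 132 ± 6.83 CPM in adults, the histone deacetylase Hdac3 had 169 ± 5.81 CPM at P5, 172 ± 18.7 CPM at P15 and 112 ± 5.78 CPM in adults and the non-muscle myosin Myh9 had 72.5 ± 5 CPM at P5, 46.4 ± 12.5 CPM at P15 and 72 ± 6.93 CPM in adults. The ratio of Hdac3, called from P5 to adult with -0.15 ± 0.03 (adjusted p = 8.4e-05, edgeR), was the only 1 of the 9, beside 29.6% of all genes, and that of Smyd2 moved by 0.00 ± 0.04 (adjusted p = 0.999). In the urea cycle, arginine and nitric oxide list 15 of 20 genes were tested, and 9 rose and 4 fell, beside the same shares of all genes. Ddah2, which degrades methylated arginines, had 39.2 ± 3.4 CPM at P5, 8.93 ± 2.34 CPM at P15 and 5.83 ± 1.39 CPM in adults, Slc7a2, a transporter of cationic amino acids, had 57.9 ± 1.79 CPM at P5, 142 ± 11.4 CPM at P15 and 124 ± 12.6 CPM in adults, and the mitochondrial ornithine carrier Slc25a15 had 21.8 ± 2.13 CPM at P5, 39.8 ± 2.8 CPM at P15 and 38.8 ± 2.42 CPM in adults. Ratios of 5 of these 15 genes were called from P5 to adult (Slc25a12, Gatm, Nos1, Asl and Slc7a1), beside 29.6% of all genes, with a median size of 0.094 over the list beside 2.14 for Ass1.

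Of 27 genes of securin, separase and anaphase 17 were tested, and 7 rose and 7 fell from P5 to adult, beside 40.6% and 41.5% of all genes. The anaphase promoting complex subunits Anapc5 and Anapc2 had 433 ± 15.1 CPM at P5, 261 ± 24.3 CPM at P15 and 234 ± 13.7 CPM in adults, and 62.1 ± 3.63 CPM at P5, 58.7 ± 5 CPM at P15 and 91.1 ± 8.14 CPM in adults, in that order. Fzr1, an activator of this complex, had 85.9 ± 4.02 CPM at P5, 30.8 ± 6.11 CPM at P15 and 40.8 ± 6.56 CPM in adults. Ratios were called for 5 of 17 (Anapc1, Anapc5, Ube2s, Cdc27 and Cdc23), beside 29.6% of all genes, with a median size of 0.105 beside 2.25 for Pttg1. In the list of SEC14-like and CRAL-TRIO proteins 12 of 13 were tested for level, and 5 rose and 6 fell, beside the same shares of all genes. Atcay (caytaxin) had 340 ± 12.2 CPM at P5, 187 ± 33.7 CPM at P15 and 252 ± 19.1 CPM in adults, Sec14l5 had 1.37 ± 0.617 CPM at P5, 6.26 ± 2.1 CPM at P15 and 6.77 ± 1.09 CPM in adults, and Ttpa, the alpha-tocopherol transfer protein, had 31.4 ± 2.91 CPM at P5, 43.2 ± 4.19 CPM at P15 and 22 ± 4.65 CPM in adults. Ratios of 5 of 11 (Ttpal, Clvs1, Ttpa, Clvs2 and Atcay) were called from P5 to adult, all towards C57, beside 29.6% of all genes.

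Likeness to other genes is a description with no test. For the summed log2 CPM over 46 animals, which includes the differences between ages, the highest Pearson correlations among 11424 genes were those of Nsun2 (0.928) and Nefl (0.924) with Spp1, Csrp1 (0.994) and Plekhb1 (0.993) with Itih3, and Aebp1 (0.958) and Mvp (0.947) with Fbln7. High values were also those of Gjc3 (0.969) for Smyd1, Epas1 (0.949) and Sun2 (0.949) for Ass1, Gstz1 (0.596) and Ilf2 (0.580) for Pttg1, and 3300002A11Rik (0.854) and Dnah2 (0.840) for Sec14l3. Pttg1, whose sum hardly moved, had the lowest of these values. By distance in the 3 log2 ratios among 7838 genes, Rbm3 was nearest to Fbln7 (distance 0.329), with ratios of -1.06 (P5), 0.33 (P15) and 0.55 (adult). Nespas was nearest to Spp1 (0.377), followed by Syt13 (0.454), and Psma3 came second for Fbln7 (0.650). These ratios are means of both crosses, and whether those of the named genes differ between the crosses is not given here. Nearness is therefore not read as a like cis effect. For Itih3 the nearest were Pnpla3 (0.798), with ratios of 0.94, -0.15 and -0.19 in the same order, and Ctsl (0.890). Aldh1a1 (0.579) and Polr3e (0.698) were nearest to Smyd1, Tceal3 (1.12) and Sfi1 (1.44) to Ass1, and 4833420G17Rik (1.44) and Rps15 (1.70) to Pttg1. Sec14l3 had no gene closer than H2-Ab1 (2.46) and Ndufs5 (2.499).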

How the data were processed

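Per the labels' protocols, RNA of the dorsal raphe nucleus was purified with a Qiagen kit and made into TruSeq libraries that were read as 50-base single ends. The authors deposited whole-number counts per gene and allele, 1 CAST and 1 C57 column per animal, in 3 tables, 1 for each age. The submitters' processing notes name Novoalign and mm9. How reads were assigned to alleles and whether strand was used are not given in the sources used here. The 92 columns hold 15499 genes, 14969 with a symbol, and 91 had no count.

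The 7 genes and all gene lists were chosen with earlier results of these data known. Summed counts were tested with edgeR 4.0.16 (R 4.3.3) by the quasi-likelihood test, with TMM scaling and the filterByExpr filter. Allele ratios came from an edgeR model that took each allele of each animal as a column, with animals as terms, the total of both alleles as library size and a mean summed count of at least 20. Crosses were weighted equally, p-values were adjusted by Benjamini-Hochberg over all genes tested, and calls were made at 0.05. All 7 genes passed the filters. Alternatives used DESeq2 1.42.0 and limma 3.58.1, and the procedures were tested on simulated data. The labels number the animals within groups without saying which came from the same litter, so p-values measure the spread between these samples. Adult labels carry 2 numbers whose meaning is not stated; each adult library was counted as 1 animal, and if the first number marked the animal there would be 3 per cross, which was tried as an alternative with counts summed over that number. In adults, samples of both crosses sharing the second label number deviated together, with mean correlations of 0.395, 0.19 and 0.252 for the 3 numbers. At P5 the correlations of same-numbered samples lay between -0.083 and 0.079. At P15 they were 0.75 and 0.685 for numbers 1 and 6, and between -0.412 and -0.059 for the other numbers. No 2 libraries of a group were alike within sampling noise. Of each related list the 3 genes with the smallest p of the level change over ages were named, of the neighbours the adjacent gene on each side and any called one, and for likeness the 2 nearest genes by each measure. Results of some genes that this rule names are not reported here. Gene order along the chromosomes came from RefSeq. Overlapping genes and shared transcript sequence came from GENCODE M21 on GRCm38.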

Additional observations from a re-analysis of the deposited data

Results flagged for a closer look

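Shares and summed levels of the 7 genes were checked in each cross and age, in 84 groups of 7 or 9 animals. In 4 groups, the gap of 1 value to the nearest animal was too large a part of the range by Dixon's 95% critical value. Chance alone flags about 5% of groups. The Spp1 CAST share of F1r P15 replicate 3 was 43.3%, from 155 CAST and 203 C57 counts (95% Wilson interval 38.26 to 48.47%), and the rest of its group had 53.15 to 57.48%. It was the only P15 animal with C57 as the higher Spp1 allele. The summed Sec14l3 level of F1r P5 replicate 4 was 14.657 CPM, below the 18.288 to 20.545 CPM of the rest of its group. The summed Smyd1 level of F1r P15 replicate 1 was 37.96 CPM, above 30.126 to 32.488 CPM in the others. That of F1r adult replicate 6_3 was 26.667 CPM, above 18.978 to 22.224 CPM in the others.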

How the results depend on the processing

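For single values of the 7 genes, 580 alternatives kept the direction and, where the value was tested, the side of the threshold. The CAST to C57 ratios, their changes and the allele levels had no test and so no threshold. In 21 alternatives a value that passed no test either way turned its sign, and 1 brought a call. Without the 3 libraries that stood apart, an alternative chosen after seeing the data, Ass1 fell from P5 to P15. The turned values are log2 differences. Without the libraries apart, the cross effect at P15 was -0.191 for Ass1 in place of 0.037, 0.009 for Itih3 and 0.059 for Pttg1, and in adults -0.017 for Pttg1. In the same fit the change of the cross effect from P15 to adult was 0.042 for Ass1 in place of -0.216, and -0.006 for Smyd1, and changes of the parental effect were 0.002 for Itih3 (P15 to adult), 0.102 for Sec14l3 (P5 to adult) and 0.003 for Smyd1 (P5 to P15). DESeq2 gave cross effects at P15 of 0.002 for Itih3 and 0.01 for Pttg1, of -0.004 for Pttg1 in adults, a change of 0.0 for Pttg1 from P15 to adult, and -0.007 for the Spp1 level from P5 to P15. That Spp1 value was -0.015 with the replicate block and -0.003 with adult counts summed, and the Spp1 cross effect at P15 was -0.002 with the block. The Pttg1 cross effect in adults was -0.007 with no filter and -0.003 with adult counts summed. Limma gave changes of the parental effect from P5 to adult of -0.023 for Ass1 and 0.013 for Fbln7. Counts over all genes moved by more than 1.5 times in 17 cases, and the number of the 7 genes called for the cross and parental effects stayed at 0 in each. With the replicate block on the second label number, 77 genes were called between crosses in adults in place of 15, with adult counts summed over the first label number 306, and with DESeq2 54. At P15 DESeq2 called 10 in place of 6. For the change of the cross effect, DESeq2 called 12 and the fit without the libraries apart 12 from P15 to adult in place of 5, 4 and 8 from P5 to P15 in place of 2, and DESeq2 called 1 from P5 to adult in place of 0. For the change of the parental effect, limma called 27 from P15 to adult in place of 16 and 37 from P5 to P15 in place of 19. For the parental effect itself, limma called 92 in adults, limma with the replicate block 115 and DESeq2 138, in place of 344, and at P5 they called 100, 150 and 120 in place of 327. The cause was not tested. Few C57 counts limit Sec14l3 from P15 on and Ass1 at P5.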
